A study of Homo sapiens with 12 samples.

Results

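The nuclear-encoded subunits of respiratory complexes II, III, IV and V were followed in RCC4 cells after loss of the hypoxia-inducible factors. The set was made of the symbols SDHA, SDHB, SDHC, SDHD and CYC1 and of all symbols that begin with UQCR, COX5, COX6, COX7, COX8 or ATP5, without the related genes and pseudogenes ATP5EP2, ATP5L2, ATP5S, ATP5SL, UQCRBP1 and UQCRHL. It held 43 of the 23106 symbols counted, with 4 in complex II, 9 in complex III, 15 in complex IV and 15 in complex V. The rule uses symbols only, but it was set with earlier results of these data known. RCC4 is a cell line from a human clear cell renal carcinoma. It lacks functional VHL, the protein that marks HIF-α subunits for breakdown, so both HIFs are stable in air in every group, controls included.

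Bulk RNA-seq libraries were made 48 h after transfection with pools of siRNA. Control cells received 2 nM control siRNA. HIF1A siRNA was given at 1 nM with 1 nM control siRNA, and HIF2A siRNA, which targets EPAS1, at 1 nM with 1 nM control siRNA. The double knockdown received 1 nM of each HIF siRNA and no control siRNA. There were 3 replicates per group and 12 libraries. The replicate number pairs the groups, as the methods describe. All values come from a single line, and bulk RNA cannot tell fewer cells with a transcript apart from less of it per cell.

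Electrons from succinate enter the chain at complex II, which is also the succinate dehydrogenase of the citric acid cycle. Complex III passes electrons from ubiquinol to cytochrome c, complex IV passes them on to oxygen, and complex V, the ATP synthase, uses the resulting proton gradient to make ATP. HIF-1 is known for moving cells from respiration to glycolysis, and clear cell renal carcinoma is known for low oxidative phosphorylation. Of the subunits encoded by mitochondrial DNA, which form the catalytic core of complex IV, 6 were looked up. None had an entry among the symbols counted under the names searched, so they could not be analysed here.

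Library totals lay between 13263168 and 20451433 counts, of which the 43 genes took 0.490 to 0.792%. HIF1A, the target of the first siRNA, lay between 15 and 22.2 CPM (counts scaled to the total of the library) with HIF1A siRNA and between 58.2 and 120 CPM in the controls (log2 fold change -2.39 ± 0.22, SE, edgeR adjusted p = 1.3e-05). EPAS1 lay between 9.16 and 11.9 CPM with HIF2A siRNA and between 138 and 171 CPM in the controls (log2 fold change -3.97 ± 0.18, edgeR adjusted p = 2.4e-08). With HIF1A siRNA, EPAS1 lay between 101 and 134 CPM, below all controls, without passing the test (-0.47 ± 0.16, edgeR adjusted p = 0.28). With HIF2A siRNA, HIF1A lay between 111 and 136 CPM (0.34 ± 0.20, edgeR adjusted p = 0.8). In the double knockdown HIF1A lay between 24.2 and 32.2 CPM (-1.73 ± 0.21, edgeR adjusted p = 8.1e-05). This was less far below the controls than with HIF1A siRNA alone, and the direct comparison is not given here for HIF1A. EPAS1 in the double knockdown lay between 7.01 and 11.3 CPM (-4.15 ± 0.19, edgeR adjusted p = 3.8e-09). The renal lineage factor PAX8 was present in every library (197 to 315 CPM). The leukocyte marker PTPRC and the endothelial marker PECAM1 had no counts, and CDH5 and DES stayed under 0.5 CPM. Not all markers looked up went this way. ALB, a hepatocyte marker, lay between 3.35 and 8.46 CPM, and PDGFRB, of fibroblasts and pericytes, between 0.647 and 8.58 CPM. The epithelial markers KRT8 (366 to 570 CPM), KRT18 (75.5 to 217 CPM) and EPCAM (32.3 to 70.8 CPM) were present, while CDH1 stayed under 0.5 CPM. VIM lay between 2930 and 5430 CPM. COL1A1, a fibroblast collagen that cultured carcinoma cells can also express, lay between 16.6 and 71.1 CPM.

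Complex IV was the complex in which tissue-specific isoforms were missing. Of the 43 genes, 38 had enough counts to be tested, and the 5 that did not were all isoforms of complex IV. COX7B2 and COX8C had 0 counts in all 12 libraries, which allows a level of up to 0.226 CPM in the shallowest library, 3 counts being the limit set by a count of 0 (counting error only). COX7A1, the isoform of heart and skeletal muscle, had 1 count in 1 library. COX6B2, a testis isoform, had at most 2 counts, and COX6A2, also of heart and muscle, at most 8. Their widely expressed partners were abundant, with COX6A1 between 135 and 315 CPM, COX6B1 between 114 and 265 CPM, COX7A2 between 87.3 and 143 CPM, COX7B between 89.2 and 208 CPM and COX8A between 104 and 197 CPM. The complex IV isoform COX4I2, which is not in the set, had no counts either, and its partner COX4I1 lay between 263 and 533 CPM.

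The heat map of the subunits shows their level in each library. Replicate 3 was low for most subunits whatever the siRNA, and the double knockdown of replicate 2 was the library with the strongest colours on the high side. Of the variance of log2 CPM over the 38 tested subunits, 72.2% lay between replicate numbers, 11.8% between siRNA groups and 16.0% in the remainder. Over all 13000 genes tested the shares were 49.8, 25.8 and 24.4%. The share between replicate numbers was 49.1% for complex II, 76.9% for complex III, 69.5% for complex IV and 72.8% for complex V.

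**Figure D1:**
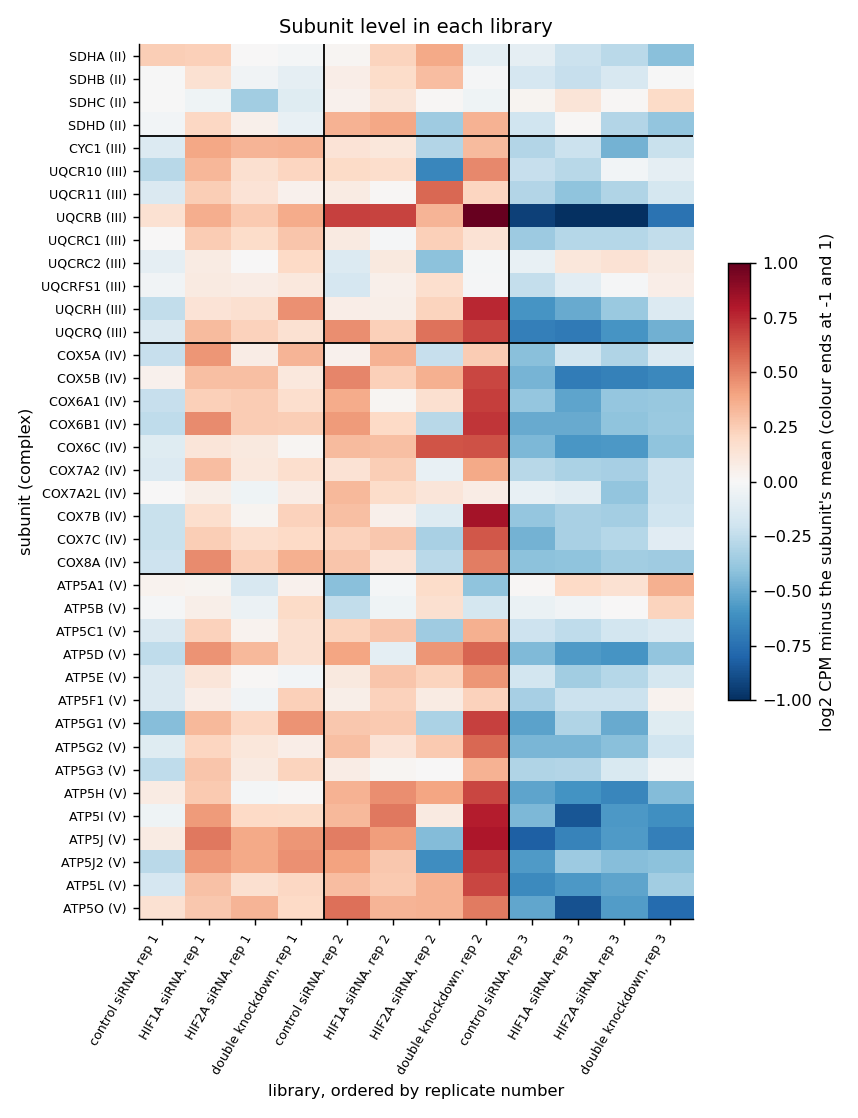
Level of the 38 tested subunits (rows, by complex) in the 12 libraries (columns, by replicate number), as log2 CPM minus the mean of the subunit over all libraries, with the colour ending at -1 and 1. The replicate 3 columns are blue for most rows, and UQCRB, with 28.0 to 36.3 CPM there and 67.2 to 125 CPM elsewhere, is the most intense row.

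Described here are 2 libraries, picked after seeing the data, that lay apart from others of their number for some subunits. A search over all libraries, given further below, flagged other libraries too and did not flag ATP5J or UQCR11. With HIF2A siRNA in replicate 2, ATP5J, a stalk subunit of ATP synthase, lay at 51.3 CPM and between 92.5 and 121 CPM in the other libraries of replicate 2. In the same library UQCR11, a small subunit of complex III, was high, at 173 CPM beside 117 to 135 CPM. Control siRNA of replicate 1 was low for CYC1, the cytochrome c1 of complex III, at 136 CPM beside 189 to 195 CPM.

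With both HIFs knocked down, most subunits of complexes III, IV and V lay above control siRNA, and 3 passed the test. The median log2 fold change of the 38 subunits was 0.20, beside 0.005 over all genes tested. Without control siRNA replicate 1 the median of the subunits was 0.129. By complex, the median was 0.23 for complex III, 0.25 for complex IV, 0.21 for complex V and -0.05 for complex II. At an adjusted p under 0.05 (edgeR's quasi-likelihood test with the replicate as a block), 3 of 38 subunits were higher and 0 lower, and 3.86% of all genes were higher. An unadjusted p under 0.05 in the same test was reached by 10 of 38 subunits, all higher. It was reached by 3291 of the 13000 genes in either direction, so by this measure the subunits were near the share of all genes. In all 3 pairs, 29 of 38 subunits (76.3%) lay above their control, and 26.1% of all genes did. They were all 9 subunits of complex III, 8 of 10 of complex IV, 12 of 15 of complex V and 0 of 4 of complex II. The control libraries are the same for all subunits, so these counts are not independent of each other.

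UQCRH, the hinge subunit of complex III that helps cytochrome c to dock, rose most. It lay at 190, 237 and 150 CPM in control replicates 1, 2 and 3 and at 310, 381 and 205 CPM in the double knockdown. Each double knockdown library lay above its own control, while the groups overlapped, with replicate 3 the lowest in both. The log2 fold change was 0.61 ± 0.11 (SE, edgeR adjusted p = 0.0017), a fold of 1.53. UQCRH also rose in the double knockdown against HIF1A siRNA alone (0.46 ± 0.11, edgeR adjusted p = 0.044), where it was the only subunit of 38 to pass and 0.431% of all genes were higher. That call was kept in 9 of 23 alternatives (edgeR or DESeq2 adjusted p from 0.002 to 1). UQCRHL, a near-identical copy of UQCRH that can share reads with it, had 306 to 663 counts per library and a log2 fold change of 0.53 ± 0.15 (edgeR adjusted p = 0.04), so the split of reads between them is uncertain.

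ATP5G1 encodes the c subunit of the ATP synthase rotor, which is made from 3 genes. It lay at 55, 89.3 and 51.1 CPM in the controls and at 101, 119 and 68.1 CPM in the double knockdown, higher in each pair with overlapping groups. Its log2 fold change was 0.55 ± 0.17 (edgeR adjusted p = 0.049). Without control siRNA replicate 1 it was 0.35 and no longer passed. The other rotor genes had the same sign without passing, with 0.24 ± 0.11 for ATP5G2 and 0.34 ± 0.12 for ATP5G3. All 3 genes encode the same mature protein.

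ATP5F1, the b subunit of the ATP synthase stator stalk, lay at 264, 303 and 232 CPM in the controls and at 344, 342 and 299 CPM in the double knockdown. The highest control lay just above the lowest double knockdown library, and each pair had the same direction. Its log2 fold change was 0.31 ± 0.09 (edgeR adjusted p = 0.046). The calls of ATP5F1 and ATP5G1 stood close to the threshold. The count of 3 fell to 1, UQCRH, in most settings that left out 1 library, and to 0 without replicate 3 or without the replicate block. It was 9 without HIF2A siRNA replicate 2, 4 without that library and control siRNA replicate 1 together, 6 with DESeq2 and 11 in a fit of only the 6 libraries compared. The share of all genes called in these settings is not given here, so these counts have no background beside them.

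**Figure D2:**
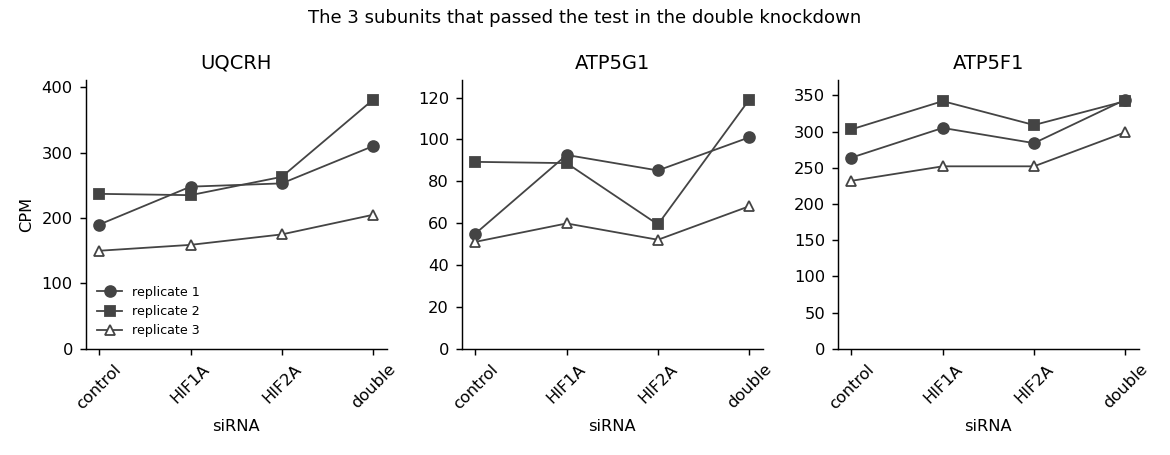
CPM of UQCRH, ATP5G1 and ATP5F1 (vertical axes, from 0) in each of the 4 siRNA groups, with a line joining the libraries of a replicate number. In each panel every double knockdown point lies above the control point of its own line, and the replicate 3 line (open triangles) is the lowest at the control and at the double knockdown.

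Among the subunits that did not pass, COX7B had 0.40 ± 0.15 (edgeR adjusted p = 0.11), COX7C 0.39 ± 0.15 (adjusted p = 0.13) and ATP5J2 0.38 ± 0.22 (adjusted p = 0.31). COX5A, which carries no metal and lies on the matrix side of complex IV, had 0.35 ± 0.12 (adjusted p = 0.084). The electron carriers of complex III had smaller values, with 0.23 ± 0.14 for CYC1 and 0.20 ± 0.10 for UQCRFS1, the Rieske iron-sulfur protein. UQCRC1 and UQCRC2, the core proteins, had 0.15 ± 0.10 and 0.19 ± 0.11. In the catalytic head of ATP synthase, ATP5A1 (the α subunit) had 0.13 ± 0.14, ATP5B (β) 0.19 ± 0.11, ATP5C1 (γ) 0.17 ± 0.14, ATP5D (δ) 0.21 ± 0.17 and ATP5E (ε) 0.15 ± 0.11. None of these passed the test.

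Complex II had another pattern. SDHA, the flavoprotein that binds succinate, lay at 224, 191 and 177 CPM in the controls and at 186, 176 and 141 CPM in the double knockdown, lower in each pair. Its log2 fold change was -0.24 ± 0.12 (edgeR adjusted p = 0.21), which did not pass. SDHB, the iron-sulfur subunit, had 0.01 ± 0.12, and the membrane anchors SDHC and SDHD had -0.01 ± 0.10 and -0.08 ± 0.14. Reads of SDHA can also fall on its pseudogenes SDHAP1, SDHAP2 and SDHAP3, which had at most 230 counts in a library. COX7A2L (-0.11 ± 0.10), which joins complexes III and IV into supercomplexes, and ATP5O (-0.08 ± 0.11) were the other subunits under 0 by more than 0.05. The difference between complex II and the other complexes was not tested.

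**Figure D3:**
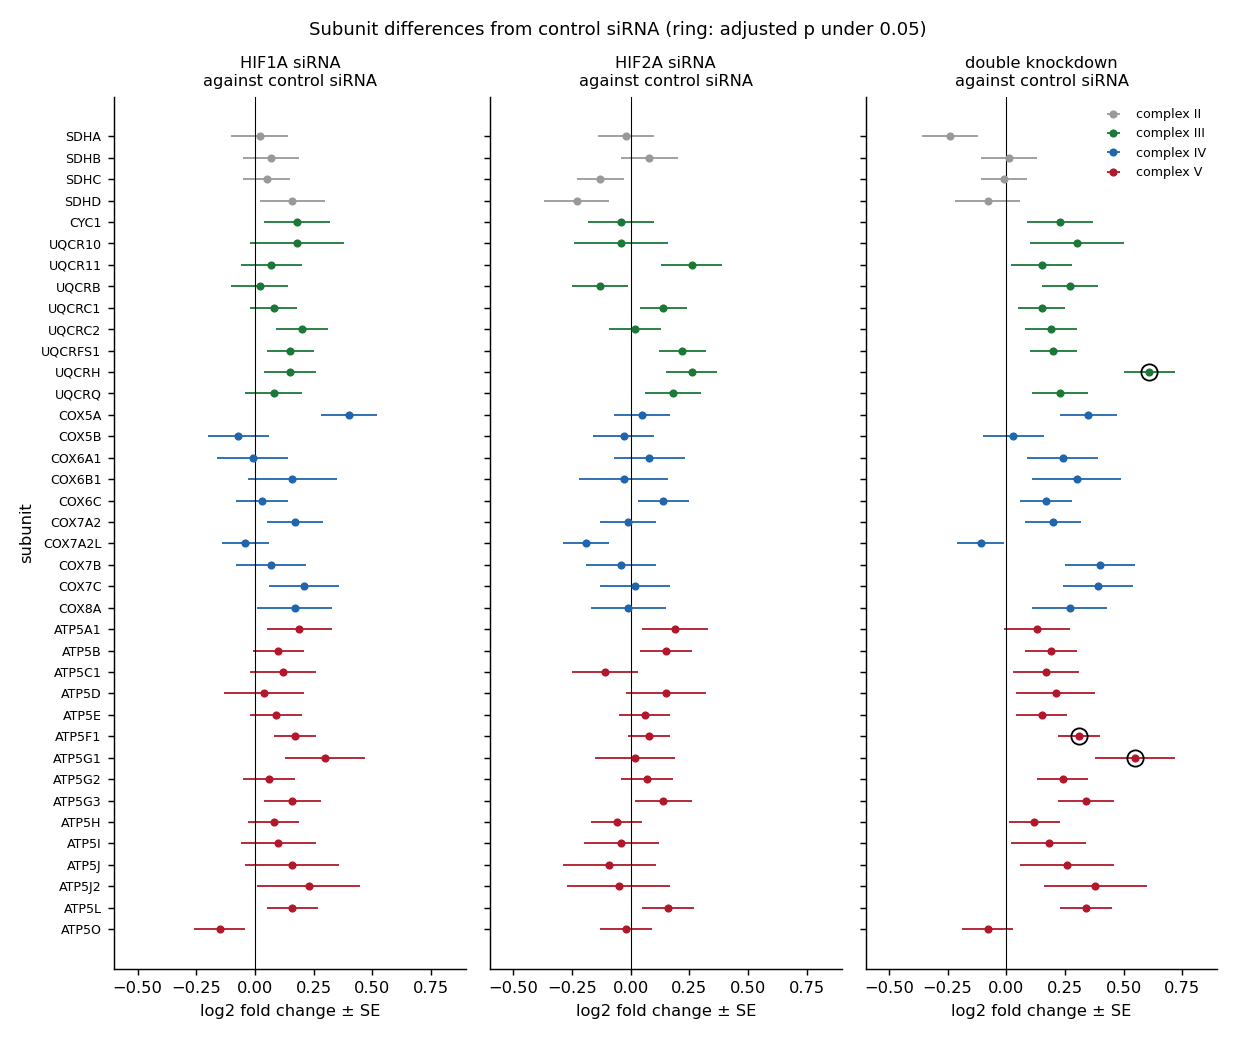
Log2 fold change against control siRNA (horizontal axis, points with SE) of each tested subunit (rows, coloured by complex) for HIF1A siRNA, HIF2A siRNA and the double knockdown, with rings at an adjusted p under 0.05. Rings stand only in the double knockdown panel, at UQCRH, ATP5G1 and ATP5F1, and all 9 subunits of complex III lie to the right of 0 there.

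Neither siRNA alone gave a subunit that passed the test. With HIF1A siRNA, 0 of 38 passed in edgeR and in DESeq2, where 1.39% of all genes passed in edgeR. An unadjusted p under 0.05 was reached by 1 subunit and by 1119 of the 13000 genes. The median log2 fold change was 0.11, with 34 of 38 above 0. This median came from replicate 1, in which it was 0.38, while it was -0.01 in replicate 2 and 0.01 in replicate 3. Without control siRNA replicate 1 the median was 0.024. In all 3 pairs 7 subunits were higher, and 14.8% of all genes were. COX5A came closest. It lay at 72.8, 88.2 and 63.8 CPM in the controls and at 116, 109 and 75.3 CPM with HIF1A siRNA, higher in each pair (0.40 ± 0.12, edgeR adjusted p = 0.19). Without HIF2A siRNA replicate 2, a library of neither group that enters the common estimate of spread, its edgeR adjusted p was 0.042, and over all 24 alternatives the adjusted p ranged from 0.042 to 1. The lowest values were those of ATP5O (-0.15 ± 0.11), COX5B (-0.07 ± 0.13), a zinc-binding subunit, and COX7A2L (-0.04 ± 0.10).

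With HIF2A siRNA, 0 of 38 subunits passed in edgeR and in DESeq2, and 0.2% of all genes passed in edgeR. An unadjusted p under 0.05 was reached by 2 subunits and by 869 of the 13000 genes. The median log2 fold change was 0.02 (-0.065 without control siRNA replicate 1 and 0.107 without HIF2A siRNA replicate 2), with 20 of 38 above 0, and 6 were higher in all 3 pairs, where 10.9% of all genes were. The highest were UQCR11 (0.26 ± 0.13), UQCRH (0.26 ± 0.11) and UQCRFS1 (0.22 ± 0.10), all of complex III, and the lowest were SDHD (-0.23 ± 0.14), COX7A2L (-0.19 ± 0.10) and SDHC (-0.13 ± 0.10). SDHD lay at 91.1, 118 and 80.5 CPM in the controls and at 95.8, 72.4 and 75.5 CPM with HIF2A siRNA, so that its value rested mostly on replicate 2. Without HIF2A siRNA replicate 2 it was -0.02. The value of UQCR11 rested on the same library, at 173 CPM, with pairs from -0.01 to 0.49, and was 0.11 without it. These comparisons and the double knockdown share their control libraries.

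The direct comparisons between knockdowns also left few calls. Between HIF1A and HIF2A siRNA, 0 of 38 subunits passed in edgeR and in DESeq2, and 1.92% of all genes passed in edgeR. There 2 subunits and 1569 of the 13000 genes had an unadjusted p under 0.05. The highest values were those of SDHD (0.38 ± 0.14) and COX5A (0.35 ± 0.12). Between the double knockdown and HIF2A siRNA 0 of 38 passed in edgeR, and 4% of all genes passed. In that comparison 7 subunits and 2317 of the 13000 genes had an unadjusted p under 0.05. DESeq2 called 3 there, UQCRH (0.36), ATP5G1 (0.53) and UQCRB (0.40), and the share of all genes it called is not given here. Between the double knockdown and HIF1A siRNA, 3 subunits, 2 of them higher, and 1585 of the 13000 genes had an unadjusted edgeR p under 0.05. The median log2 fold change of the double knockdown was 0.09 against HIF1A siRNA, and 0.006 without double knockdown replicate 2. In replicate 1 that median was -0.09, with 26 of 38 subunits lower. Against HIF2A siRNA the median was 0.18, and 0.091 without HIF2A siRNA replicate 2. The interaction of the siRNAs, which asks whether the double knockdown differs from the sum of the single ones, was passed by 0 of 38 subunits and by 0 of the 13000 genes in edgeR (0%), with 318 genes at an unadjusted p under 0.05. DESeq2 called 11 genes, none of them a subunit. UQCRB (0.38 ± 0.17) was the only subunit with an unadjusted p under 0.05, at 0.046. It has not been shown that the 2 siRNAs act together more than additively on any subunit.

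Summed over each complex, the double knockdown lay above its own control in every replicate number for complexes III, IV and V and below it for complex II. The double knockdown sum of complex III was 129% of its own control in replicate 1, 121% in replicate 2 and 116% in replicate 3. For complex V it was 119, 115 and 117%. For complex IV it was 129, 121 and 106%, and for complex II 89.1, 95.0 and 93.5%. With HIF1A siRNA the complex IV sum was 138% in replicate 1, 91.8% in replicate 2 and 99.0% in replicate 3, so the pairs did not have a common direction.

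**Figure D4:**
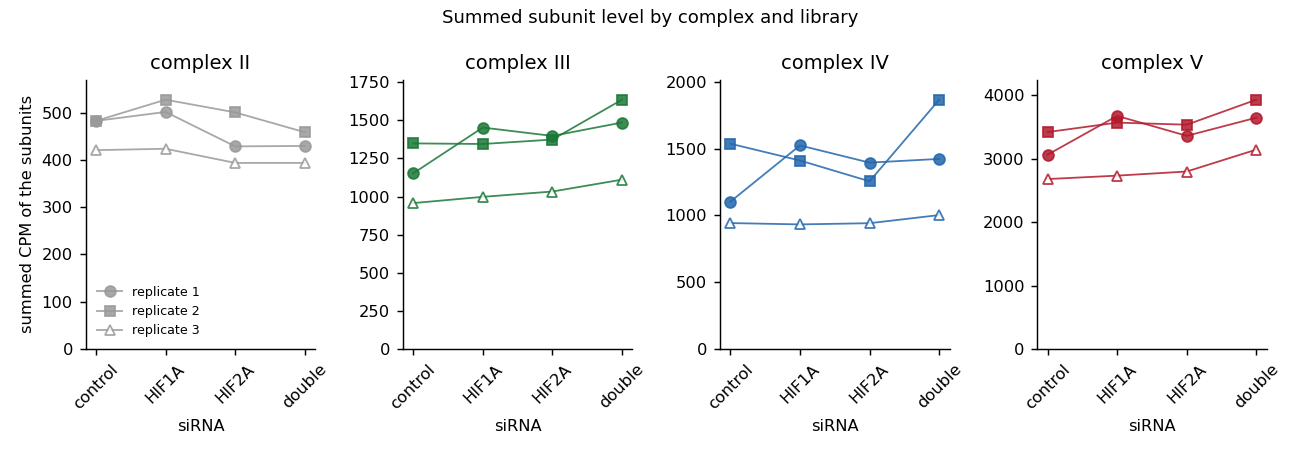
Summed CPM of the subunits of each complex (vertical axes, from 0) in the 4 siRNA groups, with a line for each replicate number. For complex V the double knockdown lies at 3649, 3933 and 3145 and the control at 3064, 3421 and 2680, and the replicate 3 line is the lowest at every group in all 4 panels.

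Regulators and partners of the respiratory chain were read from lists. Of 16 regulators of mitochondrial genes, 3 were higher and 1 lower in the double knockdown, where 3.86% of all genes were higher and 6.42% lower. PPARGC1A, the coactivator PGC-1α that drives respiratory genes, lay between 3.6 and 10 CPM there and between 2.05 and 3.80 CPM in the controls (1.10 ± 0.30, edgeR adjusted p = 0.031). PPARGC1B, its relative, lay between 9.20 and 11.6 CPM and between 4.42 and 8.43 CPM in the controls (0.77 ± 0.20, adjusted p = 0.022). ESRRA, the nuclear receptor ERRα that both coactivators bind, lay between 40.9 and 60.3 CPM and between 22.7 and 39.7 CPM in the controls (0.78 ± 0.16, adjusted p = 0.0047). For the latter pair the groups did not overlap. MXI1, an antagonist of MYC and a known HIF-1 target, fell with HIF1A siRNA (-0.90 ± 0.15, adjusted p = 0.0032) and in the double knockdown (-0.90 ± 0.15, adjusted p = 0.001). With HIF1A siRNA the mitochondrial protease LONP1 fell too (-0.54 ± 0.11, adjusted p = 0.015), and with HIF2A siRNA none of the 16 passed. NRF1, GABPA and TFAM, other factors of the same list, did not pass in any of the 3 comparisons.

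NDUFA4L2, an atypical subunit known as a HIF-1 target, fell with HIF1A siRNA (-1.94 ± 0.27, edgeR adjusted p = 0.00094) and in the double knockdown (-2.06 ± 0.27, adjusted p = 0.00021). Of the 7 genes tested in its list, which also held COX4I1, NDUFA4 and the cytochrome c gene CYCS, it was the only one to pass. Among complex I subunits 0 of 37 passed in either single knockdown or the double knockdown, with medians of 0.10, 0.07 and 0.18. Among assembly factors, BCS1L, which inserts the Rieske protein into complex III, rose in the double knockdown (0.44 ± 0.12, adjusted p = 0.028), 1 of 6 factors of complex III. None of the 4 factors of complex II, the 25 of complex IV or the 4 of complex V passed in the 3 comparisons with control siRNA.

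Promoters of the set were searched for motifs of factors known to act on respiratory genes. RefSeq promoters (GRCh38.p14, 250 bases before to 50 after the start) were matched for 34 of the 43 genes, 30 of them among the tested. The ETS core, CCGGAAG on either strand, stood in 13 of these 30 (43.3%), in 10.7% of all 27305 promoters and in 19.5% of those of the tested genes. The NRF1 motif, GCGC and TGCGC around any single base, stood in 9 of 30 (30%), in 6.28% of all promoters and in 11.8% of those of tested genes. The core of the hypoxia response element, ACGTG or GCGTG on either strand, stood in 18 of 30 (60%), in 48.4% of all promoters and in 63.2% of those of tested genes. A core so short overlaps the NRF1 motif in places and recurs by base composition.

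The stretches of 120 bases that end just before the annotated start are shown for the subunits that passed in the double knockdown and for SDHD and UQCR11, whose stretches hold both motifs. ATP5I also had both over its whole promoter, with 1 match to the ETS core and 2 to the NRF1 motif, and its stretch is not shown. Capitals mark the ETS core and the NRF1 motif. They lie on chr1:46303578-46303697 (UQCRH, plus strand), chr1:111449344-111449463 (ATP5F1, plus strand, now named ATP5PB), chr17:48892667-48892786 (ATP5G1, plus strand, now ATP5MC1), chr11:112086753-112086872 (SDHD, plus strand) and chr19:1605463-1605582 (UQCR11, minus strand).
UQCRH: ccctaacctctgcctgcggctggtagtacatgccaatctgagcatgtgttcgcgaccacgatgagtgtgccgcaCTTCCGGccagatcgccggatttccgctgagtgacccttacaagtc
ATP5F1: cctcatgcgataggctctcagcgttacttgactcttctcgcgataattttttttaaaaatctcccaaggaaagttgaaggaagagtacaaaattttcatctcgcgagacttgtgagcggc
ATP5G1: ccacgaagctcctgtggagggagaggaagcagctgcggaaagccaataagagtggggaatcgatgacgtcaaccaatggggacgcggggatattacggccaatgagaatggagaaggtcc
SDHD: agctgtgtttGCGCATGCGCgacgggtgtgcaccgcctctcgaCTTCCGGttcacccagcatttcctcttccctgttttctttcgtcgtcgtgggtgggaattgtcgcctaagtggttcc
UQCR11: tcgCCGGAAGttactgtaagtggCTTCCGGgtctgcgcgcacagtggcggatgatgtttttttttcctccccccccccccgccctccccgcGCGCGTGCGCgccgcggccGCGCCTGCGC
UQCRH holds a single ETS core on the minus strand, and the stretches of ATP5F1 and ATP5G1 hold neither motif. Over the whole promoters searched, ATP5F1 and ATP5G1 each had 2 matches to the hypoxia response core and UQCRH had 0. No motif of this search was thus common to all the subunits that passed.

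Replicate number moved the subunits more than any siRNA did. Against replicate 1, replicate 3 was lower for 27 of 38 subunits (71.1%) and higher for 0, where 22% of all genes were lower. Against replicate 2, it was lower for 32 (84.2%) and higher for 1, ATP5A1 (0.34 ± 0.12, edgeR adjusted p = 0.037), where 24% of all genes were lower and 26% higher. Replicates 1 and 2 gave no call for a subunit in edgeR, where 0.208% of all genes passed. An unadjusted p under 0.05 was reached there by 8 subunits and by 1775 of the 13000 genes. DESeq2 called 3 subunits, and the share of all genes it called is not given here. The median log2 fold change of the subunits was -0.44 for replicate 3 against 1, -0.52 against 2 and 0.13 for replicate 2 against 1. What distinguishes replicate 3 is not given in the labels.

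UQCRB, a ubiquinone-binding subunit of complex III, differed most. It lay at 31.6, 28.2, 28.0 and 36.3 CPM in replicate 3, at 67.2, 77.8, 72.6 and 78.2 CPM in replicate 1 and at 97.1, 96.6, 76.5 and 125 CPM in replicate 2 (control, HIF1A, HIF2A and double knockdown). All libraries of replicate 3 lay below all of replicates 1 and 2, which overlapped each other. The log2 fold change was -1.26 ± 0.11 against replicate 1 (edgeR adjusted p = 4.1e-06) and -1.66 ± 0.11 against replicate 2 (adjusted p = 3.6e-07). ATP5O, the OSCP subunit that ties the stator to the head, lay between 86.4 and 110 CPM in replicate 3 and between 176 and 232 CPM in the others (-0.92 ± 0.10 against replicate 1, adjusted p = 1.5e-05). ATP5J lay between 39.3 and 46.6 CPM in replicate 3 and between 51.3 and 121 CPM elsewhere (-1.04 ± 0.18, adjusted p = 0.00037). UQCRQ of complex III fell by 0.76 and COX5B of complex IV by 0.81 on the log2 scale against replicate 1 (adjusted p = 0.00011 and 9e-05).

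By complex, replicate 3 was lower than replicate 1 for 1 of 4 subunits of complex II, 6 of 9 of complex III, 9 of 10 of complex IV and 11 of 15 of complex V. The 11 subunits that did not pass came from every complex. ATP5A1 (0.19 ± 0.12) and ATP5B (-0.02 ± 0.10) make up most of the ATP synthase head, UQCRC2 (0.02 ± 0.10) and UQCRFS1 (-0.13 ± 0.08) belong to the core of complex III, and SDHB (-0.15 ± 0.10), SDHC (0.22 ± 0.09) and SDHD (-0.26 ± 0.12) to complex II. The other subunits that did not pass were ATP5C1 (-0.27 ± 0.12), ATP5E (-0.24 ± 0.09), COX7A2L (-0.22 ± 0.09) and UQCR10 (-0.27 ± 0.17). UQCRC1 (-0.48 ± 0.09), CYC1 (-0.54 ± 0.12) and SDHA (-0.37 ± 0.10) were among those lower (edgeR adjusted p = 0.00056, 0.0022 and 0.0085). Among complex I subunits, 31 of 37 were lower in replicate 3 than in replicate 1 and 1 was higher.

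Transcript length moved with this difference. The annotated canonical transcripts of the tested subunits had a median length of 1111 bases, beside 3335.5 bases over the tested genes with a known length. The 17 subunits under 1000 bases had a median log2 fold change of -0.60 for replicate 3 against 1 and the 21 longer ones -0.27. The 752 other genes under 1000 bases had a median of -0.51, and the 11806 longer ones 0.027. Spearman's rho between length and fold change was 0.547 over the 38 subunits and 0.501 over 12596 genes, as a description across genes that share libraries. With a trend of GC content and length removed in each library, 10 subunits were lower and 1 higher in replicate 3 against 1, where 19.3% of all genes were lower, and the median was -0.117. Against replicate 2, 14 were lower and 3 higher, where 21% of all genes were lower, and the median was -0.101. ATP5O, ATP5J, UQCRQ and COX5B were still lower and SDHC was higher in both. The canonical transcripts annotated for UQCRB and ATP5A1, with 8459 and 5761 bases, are long and may not be the main mRNA of these genes, so that their corrected values are uncertain. Over the other 36 subunits rho was 0.656.

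**Figure D5:**
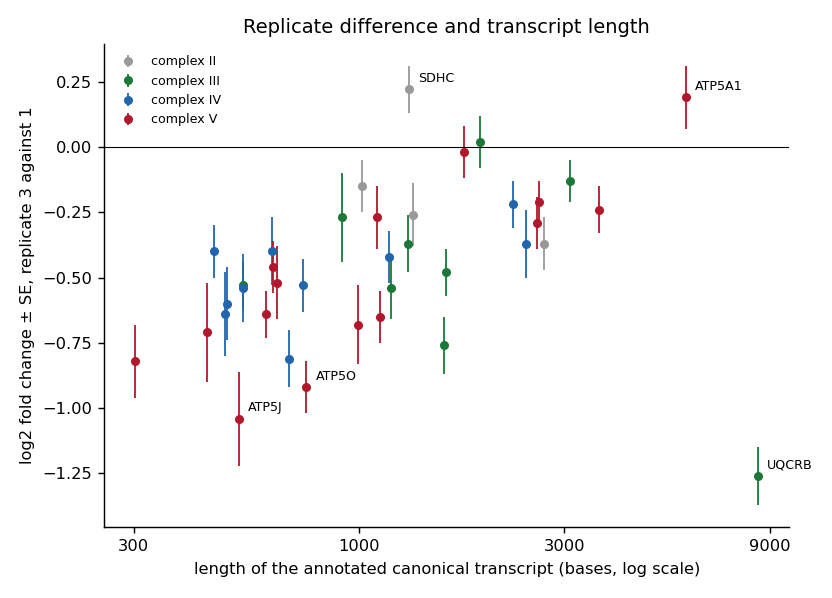
Log2 fold change of replicate 3 against replicate 1 (vertical axis, points with SE) against the length of the annotated canonical transcript (horizontal axis, log scale) for the 38 tested subunits, coloured by complex. All subunits under 1000 bases lie below 0, and UQCRB, at 8459 bases and -1.26, lies apart at the lower right, a length that may not be that of its main mRNA.

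Length moved less with the siRNA comparison. In the double knockdown against control siRNA, the median was 0.24 for the short subunits and 0.19 for the longer ones, and 0.17 for the other short genes and -0.007 for the other longer genes. With the trend removed, the median of the subunits was 0.115, and 4 passed, where 6.23% of all genes were higher. They were UQCRH (0.45), ATP5G1 (0.43), ATP5F1 (0.28) and COX5A (0.27).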

How the data were processed

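RNA of RCC4 cells was sequenced in 12 libraries, 3 replicates in each of 4 siRNA groups. Per the paper's methods and the submitters' processing notes, the authors trimmed reads with Trim Galore 0.3.3, aligned them to hg19 (HISAT2 2.05), kept uniquely mapped fragments (Picard 2.0.1) and counted these per gene symbol (HTSeq 0.5.4p3, intersection-strict). The raw counts were deposited. Whether counting used strand is not given in the sources used here.

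From the deposited counts, edgeR 4.0.16 (R 4.3.3) was run with TMM scaling, its expression filter (at least 10 counts in scaled libraries, 15 in total), the replicate number as a block and all 12 libraries in a single fit of 13000 genes. P-values were adjusted by Benjamini-Hochberg over all genes tested and called under 0.05. CPM used totals scaled by TMM (0.980 to 1.02), and pair ratios were taken after adding 0.5 CPM. The study's methods state the pairing. Across all genes, the deviations of same-numbered libraries from their group means had correlations of 0.0991 to 0.813, and those of other numbers -0.724 to 0.527. Across the tested subunits these ranges were -0.307 to 0.927 and -0.922 to 0.772, so same and other numbers overlapped widely. Deviations within a group cancel out, which in itself draws the correlations of other numbers downward. Replicates differed by more than sampling noise. The methods call them biological replicates without saying what was repeated, and p-values measure the spread of these libraries.

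Genes to name were set by a rule: those called, the 3 highest and lowest per comparison, catalytic and rotor subunits, isoform sets, and called or extreme genes of the lists. Not all genes under this rule are given. The highest and lowest are incomplete for several comparisons and left out for replicate 2 against 1. The members and lists were chosen with earlier results of these data known. Lengths, GC content and current symbols came from GENCODE v44 and RefSeq tables, promoters from RefSeq. Alternatives were DESeq2 (1.42.0) as test or scaling, upper-quartile scaling, other filters, no block, only the libraries compared, removal of a GC and length trend (splines with 5 degrees of freedom) and leaving out libraries. Scripts were tested on simulated data.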

Additional observations from a re-analysis of the deposited data

Results flagged for a closer look

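For each tested subunit and each summed complex, the 4 libraries of a replicate number were searched for a library far from the others. This was the case in 8 of 126 sets of 4, and chance alone gives about 1 in 20. Control siRNA replicate 1 was low for ATP5J2 (106 CPM, the others between 165.9 and 175.2) and for CYC1 (136 CPM, the others between 189.4 and 195.1). HIF2A siRNA replicate 2 was low for SDHD (72.4 CPM, the others between 118.2 and 120.8), and HIF2A siRNA replicate 1 was low for ATP5A1 (366 CPM, the others between 417.4 and 422.1). HIF1A siRNA replicate 3 was low for COX6A1 (135 CPM, the others between 148.5 and 149.6). Double knockdown replicate 3 was high for ATP5G2 (206 CPM, the others between 172.0 and 176.8) and for the sum of complex IV (1003 CPM, the others between 933.3 and 942.9). Double knockdown replicate 2 was high for the sum of complex III (1636 CPM, the others between 1345 and 1374). The causes were not tested.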

How the results depend on the processing

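Of 556 results recomputed under an alternative, 462 kept their direction and side of the threshold, or stayed within the spread of replicates. With the GC and length trend removed, 6 called subunits turned to the other side of 0 for replicate 3 against 1 (0.02 to 0.10) and 8 for replicate 3 against 2 (-0.01 to 0.17), none of them past the threshold there. For the double knockdown against control siRNA, the 3 calls became 6 with DESeq2, 11 with only the 6 libraries compared, 0 with no replicate block (UQCRH, 0.63, adjusted p = 0.39) and 0 to 9 with a replicate number or library left out, and the median became 0.115 with the GC and length trend removed. UQCRH kept its call in 21 of 23 alternatives (adjusted p from 1.2e-06 to 0.39), each single library left out among them, and lost it without the block and without replicate 3 (0.70, adjusted p = 0.051). ATP5G1 ranged from 0.35 to 0.75 and ATP5F1 from 0.26 to 0.37. Against HIF1A siRNA, the 1 call became 0 with no replicate block, and 0 to 1 with a replicate or library left out. Against HIF2A siRNA, 0 calls became 3 with DESeq2, 1 with no filter, 1 with the trend removed, and 0 to 2 with libraries left out. For HIF1A siRNA against control siRNA, calls ranged from 0 to 1 on leaving out libraries. The median between HIF1A and HIF2A siRNA, 0.10, was 0.022 with the trend removed and -0.007 to 0.117 with libraries left out. For replicate 2 against 1, calls were 3 with DESeq2, 1 with no filter and 0 to 3 with libraries left out (3 without HIF2A siRNA replicate 2). For replicate 3, the trend removed left 11 calls (median -0.117) against replicate 1 and 17 (median -0.101) against replicate 2, and leaving out libraries gave 22 to 34 and 25 to 34. Leaving out control siRNA replicate 1 and HIF2A siRNA replicate 2 together was chosen after seeing the data. It gave 2 calls against HIF1A siRNA, 2 against HIF2A siRNA, 3 for replicate 2 against 1 and a median of 0.005 between HIF1A and HIF2A siRNA. For most of these alternatives the share of all genes called is not given here, so the counts of calls have no background beside them. The causes were not tested. Every tested subunit had 510 or more counts in each library. How far depth or the spread between replicates limits these tests was not tested.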
